A study of Arabidopsis thaliana with 6 samples.

Results

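A set of 80 Affymetrix ATH1 probe sets had a higher signal in the Arabidopsis thaliana pad4 est1b double mutant than in pad4 in each of 3 same-numbered pairs of arrays. They were taken from the 12804 non-control probe sets with a mean signal of at least 20 units over the 6 arrays, by asking for a difference of at least 0.8 on the log2(signal + 10) scale in pair 1, in pair 2 and in pair 3. The threshold was met by 91 probe sets, and 11 of them, among them the plant defensins, AT3G53400 and CPUORF47, were left out by name. The genotype difference therefore chose the members, so it is described here with no test. The pad4 group carries the pad4-1 mutation in a Col background, and the double mutant, labelled Col-0, carries pad4-1 together with the est1b mutation. Both genotypes thus carry a mutated PAD4, and no sample with a working PAD4 gene was analysed here. Each group had 3 samples of total RNA from leaves. The developmental stage was given as 3.90 weeks for pad4 numbers 2 and 3, labelled leaves, and as 5.10 weeks for pad4 number 1 and all 3 double mutant samples, labelled developed rosette leaves. Only the pair of number 1 was thus matched for stage and tissue label. Whether the stage values are ages in weeks or growth-stage codes is not clear from the labels. The labels do not say how many plants a sample held or whether samples came from separate sowings, so any p-value measures the spread between these samples, which may be technical.

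Nonsense-mediated mRNA decay (NMD) is the surveillance pathway that degrades transcripts whose translation stops early. NMD starts when the helicase UPF1, with UPF2 and UPF3, meets a ribosome that stopped at a premature codon, in front of a long 3' end or behind an upstream reading frame, and it also limits some normal transcripts of these kinds. In Arabidopsis leaves, loss of NMD factors sets off salicylic acid defence, and PAD4 is a lipase-like protein needed for much of that defence.

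The pad4 arrays had total signals from 3496248 to 3894818 units and the double mutant arrays from 3405664 to 3749162. PAD4 had 0 probe sets that name it alone, so the genotype labels were not checked on it. The leaf markers RCA and LHCB4.2, the 2 of 8 that could be read, summed to between 13772 and 14287 units in pad4, against between 12371 and 17910 in the double mutant. The root hair marker EXPA7, the 1 of 6 root markers that could be read, was at most 18.4 units on any array. FMA, a gene of the guard cell lineage and the 1 of 3 guard cell markers that could be read, had 101, 67.5 and 29.2 units over pad4 numbers 1 to 3 and 62.7, 44.4 and 55.1 over those of the double mutant, so the groups overlapped and pad4 varied the more. Its part in the results was not tested. Flower bud, seed, pollen and phloem markers had no probe set of their own. In leaf RNA a change in the share of a cell type and a change in RNA per cell cannot be told apart.

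Of the 80 members, 48 have 1 listed gene, 3 have several entries and 29 have none. The difference averaged over the 3 pairs ran from 0.88 to 2.95 on the log2 scale, with a median of 1.31, against a median of 0.03 over all 12804 probe sets. Taken pair by pair, the member medians were 1.16, 1.16 and 1.47 for numbers 1, 2 and 3, beside -0.0041, -0.0087 and 0.14 for all probe sets, where number 3 also stood above the rest. In the stage-matched pair of number 1 alone 56 members were raised by at least 1, against 61 in number 2 and 65 in number 3. Over all 12804 probe sets these counts were 209, 305 and 691, so they also rose towards number 3. A difference of at least 1 in every pair was found in 42 members (52 of all 12804 probe sets), and one of at least 2 in 4 (7 of all 12804).

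The same rule applied to the whole table took 0.711% of the probe sets before the 11 were left out, and the mirrored rule took 24 probe sets (0.187%) that were lower in every pair. All 3 double mutant arrays lay above all 3 pad4 arrays in 69 of the 80 members, where 6.41% of all probe sets had that order. In a limma fit of the whole table (two-sided, Benjamini-Hochberg adjustment at 0.05) 5 probe sets were called higher (0.0391%) and 0 lower, and 1 of the 5 is a member. At an unadjusted p under 0.05 limma gave 421 higher (3.29%), 76 of them members, and 148 lower (1.16%). A limma fit that took array number as a replicate block called 70 higher (0.547%), of which 57 are members, and 11 lower (0.0859%). Since the members were chosen on this contrast, nothing is read from these counts.

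**Figure D1:**
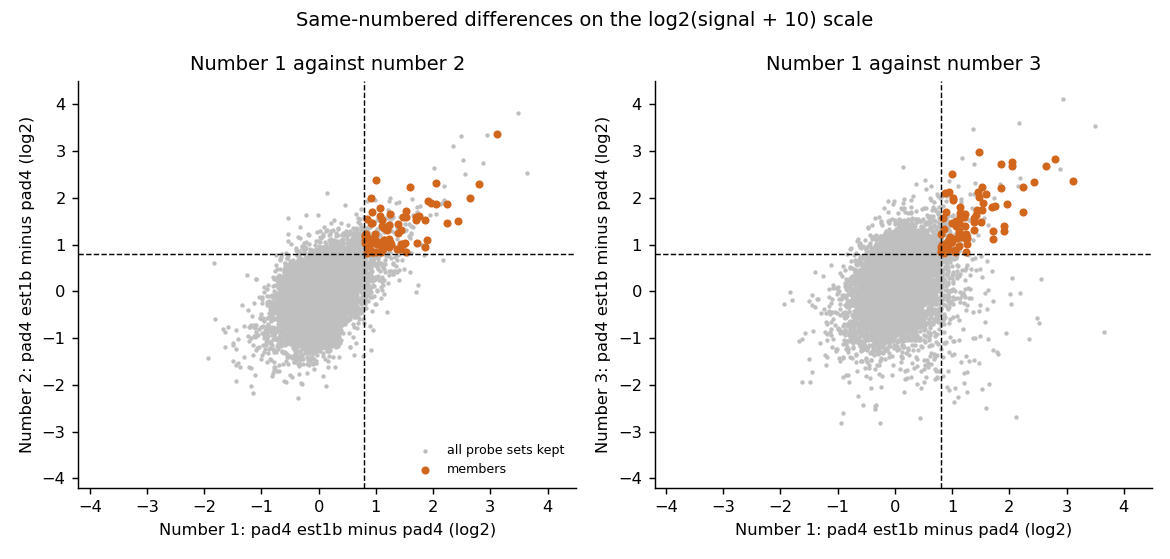
Differences between the double mutant and pad4 on the log2(signal + 10) scale, number 1 on the x axis against number 2 (left) and number 3 (right) on the y axis. Each grey point is 1 of 12804 probe sets, orange points are the 80 members, and dashed lines mark the threshold of 0.8 that chose them. The members fill the corner past both lines, and grey points in that corner were left out by name or fell short in the third pair.

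The values next to the threshold were close to each other. The smallest pair difference was 0.80, 0.81 and 0.81 in the last members inside (250837_at, 256272_at and 255645_at, without a listed gene). Just outside were 256601_s_at at 0.798, AT3G29185 at 0.795 and 257112_at at 0.794. In the member 250837_at the signals were 18.9, 15.2 and 22.9 units in pad4 against 40.5, 41.5 and 49.0 in the double mutant, with no overlap between groups. Signals are given here and below in array units, in the order of numbers 1, 2 and 3.

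Dim signals set a limit on the sizes. In 20 members the pad4 mean lay under the filter of 20 units, so they were kept only through the double mutant and had to differ (290 of all 12804 probe sets, 2.26%, are of this kind). Their differences depend on the offset of 10 units, which holds down the fold of dim genes.

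The members with a role in translation and RNA handling number 10, and their mean log2 differences ran from 0.95 to 2.35 with a median of 1.24. The largest was that of AT1G36730, which encodes eIF5, the factor that triggers GTP hydrolysis when the start codon is found. Its signals were 163, 87.1 and 38.8 units in pad4 against 709, 477 and 303 in the double mutant, a mean log2 difference of 2.35 ± 0.63 (SE, n = 3) or 5.11-fold. Each SE of a log2 difference, here and below, comes from the spread of the 3 arrays within each genotype, taken as unpaired. It is not the spread of the 3 pair differences, which were 2.05, 2.33 and 2.68 for this gene. Every double mutant array lay above every pad4 array, and within each genotype number 1 was the highest and number 3 the lowest. The members were grouped by role after their values had been seen.

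AT1G21160, a relative of eIF5B, which joins the ribosomal subunits, was dim in pad4 numbers 2 and 3. Its signals were 25.7, 2.06 and 0.99 units in pad4 against 83.4, 18.8 and 17.4 in the double mutant. The groups overlapped, because pad4 number 1 exceeded the double mutant arrays of numbers 2 and 3. The same-numbered differences were close to each other, at 1.39, 1.26 and 1.32.

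AT3G07590, which encodes the SmD1 core protein of the spliceosome, had 26.5, 36.8 and 54.3 units in pad4 against 71.0, 90.9 and 133 in the double mutant. Number 1 was the lowest and number 3 the highest in both genotypes, the opposite order to AT1G36730, and the groups did not overlap. Of the 80 members it had the least spread between its differences, 1.15, 1.11 and 1.15. AT3G18500, of the nuclease family that holds the CCR4 deadenylases, which shorten poly(A) tails, had 128, 83.0 and 71.8 units in pad4 against 312, 241 and 246 in the double mutant, with a mean log2 difference of 1.43 ± 0.25 (SE, n = 3).

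A further pair of members tied to splicing varied strongly with array number. AT2G47250, a DEAH-box helicase related to yeast PRP43, which takes spliceosomes apart, had 208, 89.6 and 45.0 units in pad4 against 422, 222 and 104 in the double mutant. AT5G55100, a protein with the SWAP domain of splicing regulators, had 68.2, 28.4 and 9.04 units in pad4 against 145, 73.0 and 42.5 in the double mutant. In both the groups overlapped, and each double mutant array was above the pad4 array of its own number. Further down, and named after their values were seen, were the KH-domain gene AT4G10070 (1.01 as the mean log2 difference), the tRNA guanosine methyltransferase gene AT3G56330 (0.95) and the genes of the pentatricopeptide repeat proteins AT1G80880 (1.37) and AT5G02860 (1.30), a family that binds organelle RNA. In AT1G80880 and AT5G02860 number 3 carried the largest difference, 2.10 and 2.12. The groups of AT3G56330 overlapped, since double mutant number 1 (43.7 units) lay below pad4 number 3 (47.5 units).

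**Figure D2:**
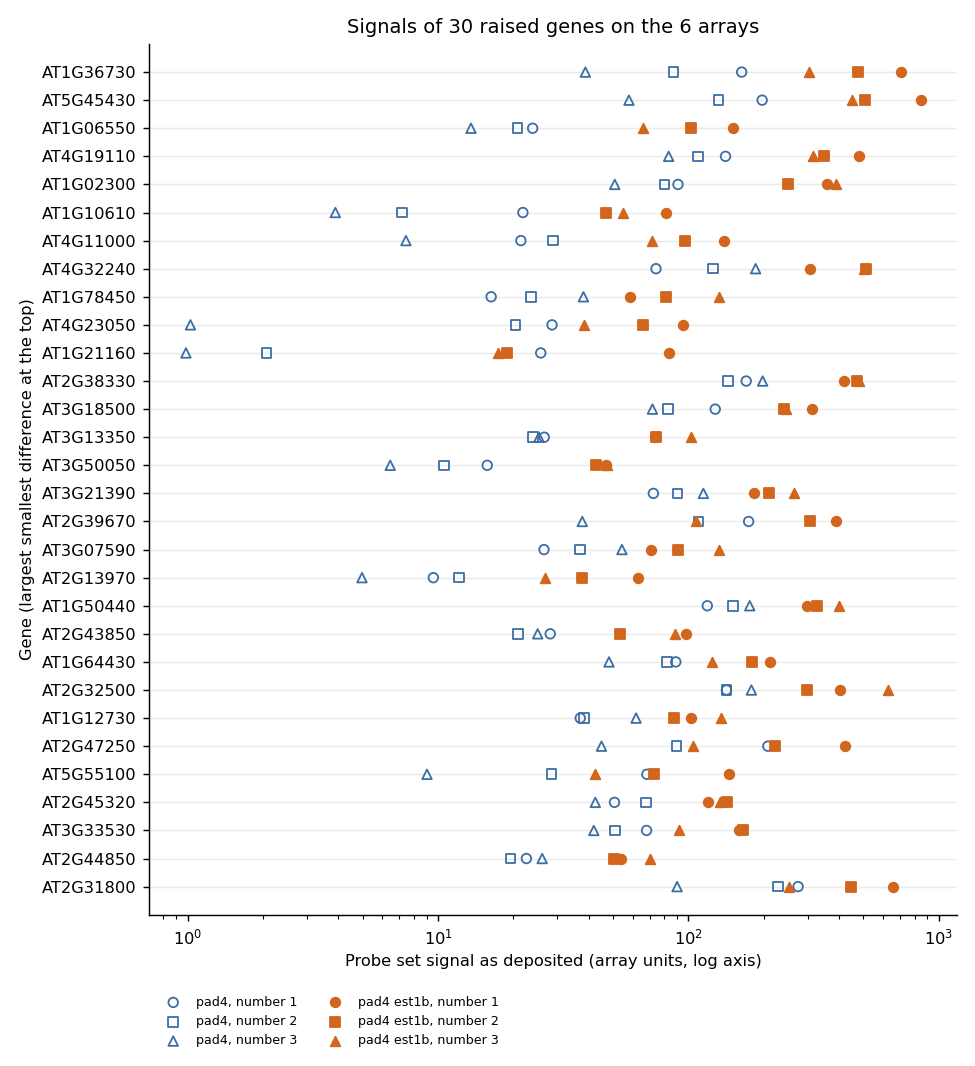
Signals of the 30 members with 1 listed gene and the largest smallest difference, on a log axis in array units. Open blue symbols are pad4 and filled orange symbols the double mutant, with circles, squares and triangles for numbers 1, 2 and 3. AT1G36730 runs from 38.8 to 163 units in pad4, against 303 to 709 in the double mutant, while in AT1G21160, AT2G39670, AT2G47250, AT5G55100 and AT2G31800 the genotypes overlap.

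Protein kinases and a phosphatase made up 6 members, with mean log2 differences from 1.19 to 2.23 and a median of 1.49. AT5G45430 and AT4G19110 encode related kinases of the MAK type, a branch near the cyclin-dependent and mitogen-activated kinases. AT5G45430 had 197, 132 and 57.9 units in pad4 against 847, 508 and 452 in the double mutant, a mean log2 difference of 2.23 ± 0.55 (SE, n = 3) or 4.68-fold. AT4G19110 had 141, 109 and 83.4 units in pad4 against 478, 347 and 314 in the double mutant, a mean log2 difference of 1.69 ± 0.27 (SE, n = 3) or 3.23-fold. In both genes the groups did not overlap, and the order of the numbers was the same in both genotypes.

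AT4G23050, a Raf-like kinase with a PAS sensor domain, had 28.5, 20.4 and 1.03 units in pad4 against 94.8, 65.7 and 38.2 in the double mutant. The pad4 array of number 3 was close to 0, and number 3 had the largest of the 3 differences (1.44, 1.32 and 2.13). AT2G43850 and AT2G31800 belong to the integrin-linked kinase family, plant Raf-like kinases with ankyrin repeats. AT2G43850 had 28.1, 20.8 and 25.0 units in pad4 against 97.8, 53.5 and 88.2 in the double mutant, and its groups were apart. AT2G31800 had 274, 228 and 90.1 units in pad4 against 654, 447 and 253 in the double mutant, where double mutant number 3 lay below pad4 number 1, so that the groups overlapped. The phosphatase gene, named after its values were seen, is AT1G18030, of the 2C class that removes phosphate from serine and threonine and includes the abscisic acid coreceptors, with a mean log2 difference of 1.22 and groups that did not overlap.

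Proteases were represented by 5 members of different classes, with mean log2 differences from 0.89 to 2.03. Groups did not overlap in any of the 5, which held for 69 of all 80 members. AT1G02300 encodes a cathepsin B-like cysteine protease, a class linked to plant cell death. It had 90.8, 80.3 and 50.8 units in pad4 against 356, 249 and 390.2 in the double mutant, a mean log2 difference of 2.03 ± 0.29 (SE, n = 3) or 4.09-fold. AT3G50050, an aspartyl protease gene, was dim in pad4, with 15.7, 10.6 and 6.45 units in pad4 against 46.7, 42.6 and 47.3 in the double mutant. Its double mutant values were close to each other, at 45.5 ± 2.55 units (SD, n = 3). The other 3 were named after their values were seen. They were the S41 peptidase gene AT5G46390 (1.25 as the mean log2 difference), the subtilase gene SBT3.5 (0.98) and AT2G20725 of the CAAX protease family (0.89).

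Membrane transport and trafficking held 6 members, and in these 6 the groups did not overlap, as in 69 of all 80 members. AT2G38330 encodes a transporter of the multidrug and toxic compound extrusion (MATE) family, whose members move organic acids, metabolites and toxins. It had 170.1, 144 and 198 units in pad4 against 416, 473 and 478 in the double mutant, with group means of 171 ± 27.0 and 456 ± 34.3 units (SD, n = 3). AT3G23550, of the same family, had 127, 115 and 122 units in pad4 against 244, 221 and 422 in the double mutant, so number 3 of the double mutant stood above the other two. AT3G21390, the gene of a mitochondrial carrier for thiamine diphosphate, had 72.5, 90.4 and 115 units in pad4 against 183, 209.9 and 265 in the double mutant, with even differences of 1.23, 1.13 and 1.14. AT1G12730, related to the PIG-U subunit of the enzyme that attaches GPI anchors, had 37.0, 38.2 and 61.8 units in pad4 against 102, 87.3 and 135 in the double mutant. Its groups did not overlap, and number 3 was the highest in both genotypes. AT5G24170, of the Got1/Sft2 family of vesicle transport, differed most in number 2 (0.91, 2.00 and 0.86), and AT1G64150, a chloroplast manganese transporter gene, evenly (0.85, 0.95 and 0.99). These last 2 and AT3G23550 were named after their values were seen.

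Both members grouped under transcription and chromatin had groups that did not overlap, like 69 of all 80 members. The basic helix-loop-helix gene AT1G29950, described below, was not put in a role group, since its probe set has more than 1 entry. AT1G10610, a basic helix-loop-helix transcription factor gene, had 21.8, 7.19 and 3.89 units in pad4 against 81.2, 47.0 and 55.0 in the double mutant, and pad4 number 1 was well above pad4 numbers 2 and 3. AT3G13350, which encodes a DNA-binding protein with ARID and HMG-box domains, had 26.6, 24.0 and 25.3 units in pad4 against 73.2, 74.2 and 102 in the double mutant. Its pad4 arrays were nearly equal, at 25.3 ± 1.29 units (SD, n = 3), and its mean log2 difference was 1.39 ± 0.14 (SE, n = 3).

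Among 7 members for other enzymes the mean log2 differences ran from 1.03 to 1.93. The highest was AT1G06550, of the enoyl-CoA hydratase and isomerase family that works in the breakdown of fatty acids and branched-chain amino acids, with 23.9, 20.8 and 13.5 units in pad4 against 151, 102 and 66.0 in the double mutant. Its groups were apart, and number 3 was the lowest in both genotypes. AT2G39670, a radical S-adenosylmethionine enzyme gene, had 174, 109.7 and 37.7 units in pad4 against 387, 305 and 107 in the double mutant. Here the groups overlapped, and the arrays differed more by number than by genotype, with number 3 minus number 1 at -1.95 in pad4 against -1.76 in the double mutant. The remaining 5, named after their values were seen, were the methyltransferase-fold gene AT1G16650 (1.46), the hydrolase-fold genes AT4G17150 (1.32) and AT5G17670 (1.14), the FKBP-type isomerase gene AT3G55520 (1.05) and the rhodanese-domain gene AT3G25480 (1.03, all mean log2 differences). AT5G17670 is the member of these 5 whose groups overlapped, with 225, 259 and 478 units in pad4 against 433, 734 and 989 in the double mutant.

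Genes known mainly by a protein domain made up 7 members. AT4G11000, an ankyrin repeat gene, had 21.4, 28.8 and 7.45 units in pad4 against 138, 97.0 and 71.7 in the double mutant, and AT1G78450, of the SOUL heme-binding family, had 16.3, 23.5 and 38.1 units in pad4 against 58.6, 81.5 and 132 in the double mutant. In AT4G11000 number 1 of the double mutant was the highest, and in AT1G78450 number 3 was. AT1G50440, a RING-type zinc finger gene, had 119, 151 and 176 units in pad4 against 297, 326 and 398 in the double mutant, with differences of 1.25, 1.06 and 1.14. AT2G32500, of the stress-responsive alpha-beta barrel family, had 142, 142 and 178 units in pad4 against 402, 297 and 624 in the double mutant, and AT3G33530, a WD40 repeat gene, had 68.1, 50.9 and 41.9 units in pad4 against 159, 165 and 91.8 in the double mutant. Their groups did not overlap. The ARM repeat gene AT3G06210 (1.37 as the mean log2 difference) and PLIM2b (0.88), a LIM protein of a family that bundles actin, were named after their values were seen. AT3G06210 had 28.1, 22.2 and 0.62 units in pad4 against 99.8, 47.5 and 25.6 in the double mutant, so its groups overlapped. The PLIM class is known mainly from pollen, and the signals of PLIM2b were 27.7, 14.8 and 14.1 units in pad4 against 57.7, 33.7 and 37.8 in the double mutant.

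For 5 of the named members no role is given here. AT4G32240 had 74.2, 126 and 186 units in pad4 against 305, 509.8 and 502 in the double mutant, a mean log2 difference of 1.74 ± 0.42 (SE, n = 3) or 3.35-fold. Its groups were apart, and number 1 was the lowest in both genotypes. AT2G13970 is annotated as a pseudogene, the 1 such locus among the 48, and had 9.58, 12.1 and 4.97 units in pad4 against 63.0, 37.4 and 26.8 in the double mutant, and its pad4 signals were dim on every array. AT1G64430, AT2G45320 and AT2G44850 had mean log2 differences of 1.13, 1.18 and 1.05, with groups that did not overlap.

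Some of the highest members have no listed gene. For 250476_at the signals were 8.40, 13.8 and 76.0 units in pad4 against 149, 236 and 433 in the double mutant, the largest mean log2 difference of the 80 at 2.95 ± 0.81 (SE, n = 3), and both genotypes were highest in number 3. For 246394_at they were 6.95, 16.2 and 20.3 units in pad4 against 108, 119 and 205 in the double mutant. For 249640_at, the 1 member called by limma in the whole-table fit, they were 59.8, 70.1 and 75.0 units in pad4 against 426, 311 and 533 in the double mutant, and for 258218_at 56.7, 45.9 and 32.2 units in pad4 against 251, 197 and 145 in the double mutant. In these 4 probe sets the groups did not overlap. Over all 29 members without a listed gene the mean log2 differences ran from 0.89 to 2.95 with a median of 1.32, close to the median of 1.26 over the 48 with 1 gene. The groups did not overlap in 27 of the 29, beside 69 of all 80 members.

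The probe set 260027_at has 2 entries that are the same locus, AT1G29950, a basic helix-loop-helix gene related to SAC51, and was named after its values were seen. SAC51 genes carry conserved upstream reading frames that hold down translation of the main frame. The signals were 72.1, 65.8 and 121 units in pad4 against 163, 252 and 364 in the double mutant, a mean log2 difference of 1.46 ± 0.40 (SE, n = 3), and the groups did not overlap. The other 2 probe sets with several entries are left unnamed. One of these 2 is among the 2 members whose suffix marks them as open to cross-hybridisation.

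The rule set no condition on how the members varied across array numbers within a genotype, but it used the same 6 signals, so the 2 are not independent and the shifts are given as a description. Number 3 was lower than number 1 by at least 1 on the log2 scale in both genotypes in 12 of the 80 members (15.0%), against 11.7% of all probe sets, and higher in 2 (2.5%), against 3.23%. Each genotype has 1 array of each number, so no test was made, and shares this near the background say nothing particular about the members. The median of number 3 minus number 1 for the members was -0.30 over the pad4 arrays and 0.08 over the others, and -0.26 and -0.07 for all probe sets. Within pad4, number 3 was the lowest array in 42 members (52.5%, beside 54.4% of all probe sets), number 2 in 22 (27.5%, beside 1790 of 12804 probe sets) and number 1 in 16 of 80 (beside 4044 of 12804).

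The members that followed the array number came from several roles. They included 4 of the 10 in translation and RNA, namely AT1G36730, AT1G21160, AT2G47250 and AT5G55100, and AT4G23050 and AT2G31800 among the kinases, all lower in number 3. For AT2G47250 number 3 minus number 1 was -1.98 in pad4 against -1.92 in the double mutant, larger in size than its mean genotype difference of 1.09. In the opposite direction 250476_at had 2.22 in pad4 against 1.48 in the double mutant, and AT5G17670 had 1.05 in pad4 against 1.17 in the double mutant. Of the 11 members whose genotypes overlapped, 10 had such a shift in both genotypes, against 4 of the 69 without overlap. With every pair raised by at least 0.8, groups can overlap only where array numbers differ by at least 0.8 in both genotypes. The split therefore follows largely from the rule, and nothing is read from it. The log2 ratio of the 3' to the 5' actin control, which climbs as RNA is degraded, was 1.50, 2.12 and 2.13 on the pad4 arrays and 1.77, 2.01 and 1.97 on the others. Its part in these shifts was not tested.

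**Figure D3:**
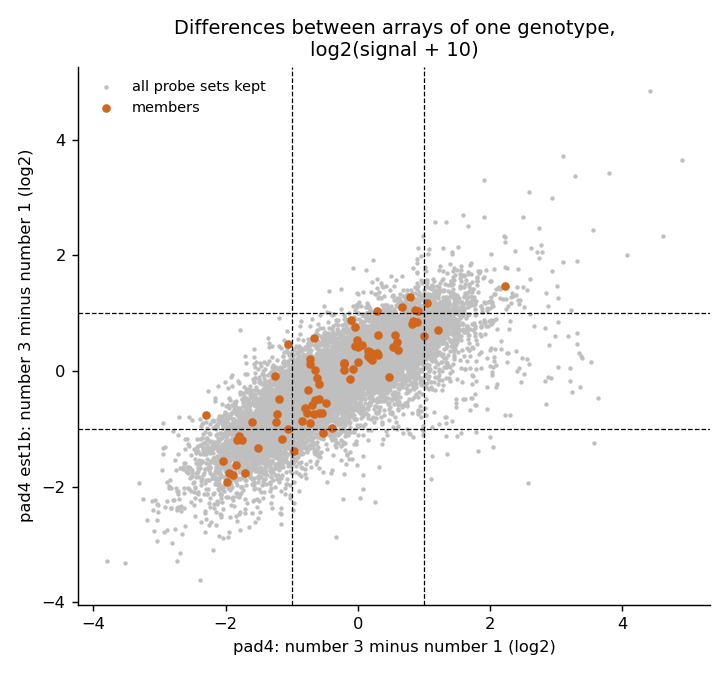
Number 3 minus number 1 on the log2(signal + 10) scale in pad4 (x axis) and in the double mutant (y axis). Grey points are 12804 probe sets, orange points the 80 members and dashed lines a difference of 1. Of the members 12 lie in the lower left corner past both lines and 2 in the upper right.

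Family members of the same proteins were set beside 14 members, from families listed after the members were known. The choice was not blind to all values. Some relatives are members themselves, and AT5G09460 is also on gene lists chosen with earlier results of these arrays known. Of 30 such relatives 20 had a probe set that was kept, and 3 of these (AT4G19110, AT2G31800 and AT2G38330, described above) are members themselves. The other 17 missed the threshold in at least 1 pair by definition. Their mean log2 differences ran from -0.52 to 1.32 with a median of 0.34, and 12 were positive, where 54.6% of all probe sets were. In 3 of the 17 all double mutant arrays lay above all pad4 arrays, an order found in 6.41% of all probe sets.

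In several families the member stood apart from its relative. The second eIF5 gene, AT1G77840, had 132, 116 and 70.2 units in pad4 against 174, 162 and 178 in the double mutant, a mean log2 difference of 0.69 beside 2.35 for AT1G36730. Its groups did not overlap, and most of the difference was in number 3. The cathepsin B genes AT1G02305 and AT4G01610 had mean log2 differences of -0.03 and -0.14 beside 2.03 for AT1G02300. AT1G02305 had 762, 769 and 761 units in pad4 against 719, 684 and 848 in the double mutant, so the pad4 range lay inside that of the double mutant. The second SmD1 gene, AT4G02840, had differences at or below 0 in each pair (-0.01, -0.36 and -0.44), and so had AT1G63110, the second PIG-U gene (-0.23, -0.08 and -0.16).

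Other relatives came closer to the threshold or varied between pairs. AT3G62310, the relative of the helicase gene AT2G47250, had differences of 0.54, 0.84 and 0.79, short of the threshold in numbers 1 and 3. In the integrin-linked kinase family AT3G58760 had a mean log2 difference of 0.63 and AT4G18950 of 0.11, beside 1.34 and 1.19 for the 2 members. AT5G09460, the relative of AT1G29950, had 1.40, 0.25 and 2.32, so number 2 kept it out. The 4 measured relatives of AT3G18500 ran from 0.07 to 0.50, and AT1G76110, the relative of the ARID gene AT3G13350, was at -0.52. The differences between relatives were not tested, since the members were chosen for theirs, and probe sets of similar genes can share signal.

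**Figure D4:**
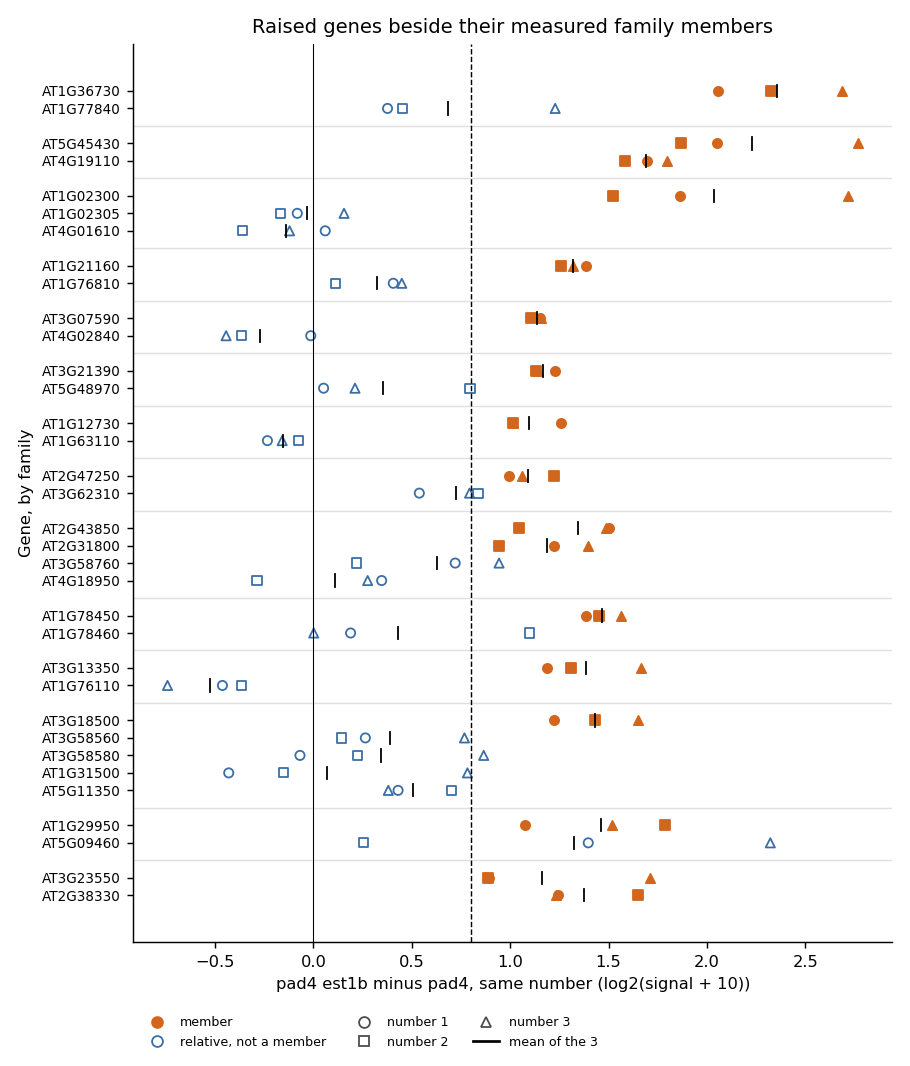
Same-numbered differences between the double mutant and pad4 on the log2(signal + 10) scale (x axis) for 14 families, one gene per row. Filled orange symbols are members, open blue symbols relatives that are not, shapes are array numbers, bars the mean of 3 and the dashed line the threshold of 0.8. The cathepsin B, SmD1 and PIG-U relatives lie around or below 0, while AT4G19110 and AT2G31800 lie past the line with their family's member.

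Genes of NMD and of leaf defence were taken from 6 lists, chosen with earlier results of these arrays known, with 78 genes of which 24 could be read. Of the NMD and exon junction machinery 6 of 15 could be read, 0 were called in either direction by limma and none is a member (median log2 difference 0.38, beside 0.03 over all probe sets). The exon junction gene AT1G80000 (BTZ) had 68.0, 32.6 and 20.4 units in pad4 against 121, 73.8 and 115 in the double mutant, with no overlap (adjusted p = 0.82 by limma), and AT1G15280 had a mean log2 difference of 0.79. AT1G80000 missed the member threshold in number 1, where its difference was 0.75. The list did not go one way, with a positive mean difference in 4 of the 6. AT2G39260 (UPF2) and AT1G28260, named after their values were seen, had -0.31 and -0.24.

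Among reported NMD targets 8 of 15 could be read, 8 had a positive difference (median 1.04), 1 was called higher and 0 lower. AT3G53400, the one called, is left out of the members by name, and AT1G36730 and AT5G45430 are members. The other 5 had mean log2 differences from 0.51 (AT2G45670) to 1.32 (AT5G09460). The direction of this list was known from earlier results on these arrays, so it is no independent evidence.

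Of 12 genes with conserved upstream reading frames 7 could be read, and limma called 2 higher, CPUORF47 and AT3G53400, and 0 lower (median 0.32). The mean difference was positive in 4 of the 7. PMEAMT, AT1G73600 and SAMDC, named after their values were seen, had -0.70, -0.24 and -0.03. Of 18 jasmonate and ethylene defence genes 4 could be read, and limma called 2 higher, PDF1.2 and PDF1.2b, and 0 lower. The 4 did not go one way: PDF1.4 and THI2.2, named after their values were seen, had mean log2 differences of -0.96 and -0.97, so the list's median of 1.26 lies between 2 positive and 2 negative values. PDF1.2 and PDF1.2b are defensins, small antifungal peptides, and the 4 genes called in these lists were left out of the members by name. Of 16 salicylic acid defence genes SAG101 (0.18) and WRKY53 (0.13) could be read, with 0 called, and of 6 senescence genes 0 could be read. Outside the reported NMD targets no list gene read through a probe set with 1 entry is a member. AT1G29950, on the list of conserved upstream reading frames, is a member through 260027_at. That probe set has 2 entries for the 1 locus, so it was not counted among the genes that could be read.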

How the data were processed

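The authors deposited 1 table of probe set intensity values on a linear scale for 6 ATH1 arrays, prepared with a 3' IVT Express kit per the labels' protocols. The submitters' processing notes list GCOS and MAS5, without settings. Every array had a 2%-trimmed mean of 100.0 units. The 3 arrays per group limit the precision.

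Groups and numbers came from sample titles. Genes were named through the platform annotation of the arrays and the TAIR10.1 RefSeq table, used for names and gene order; 13513 of 22810 probe sets have 1 gene, 503 have several and 8794 none. The 64 control probe sets were left out, and log2(signal + 10) was taken. limma 3.58.1 (R 4.3.3, lmFit and eBayes, no covariates) was fitted to all 12804 probe sets kept and was tried on simulated data. The simulation drew independent noise for each array, without shifts shared by arrays of one number, so it does not show how the fit handles these. Figures (matplotlib 3.10.9) and tables (pandas 2.3.3, numpy 2.4.6) were made in Python 3.11.15.

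The members, lists and tests were chosen with earlier results of these data known. The text names the 30 members with 1 gene and the largest smallest pair difference, unnamed ones among the top 5, 3 on each side of the threshold and up to 2 genes per list by p-value; exceptions are stated. After group means were subtracted, arrays of the same number correlated over probe sets at 0.83, 0.00023 and 0.68. Arrays of numbers 1 and 3 thus shared deviations between the genotypes, which the unpaired fit and SEs count as spread. The low value for number 2 does not decide whether the arrays are paired. The labels do not say whether same-numbered arrays share a source, so the numbers were not taken as pairs. Alternatives were other offsets, filters and normalizations, the number as a block, stage as a covariate, only samples labelled 5.10, trend and robust options, and arrays left out; the fit without both number 3 arrays was added after the data were seen. The second mutated gene is not reported here. A planned motif search was not run, since no promoter sequences were used here.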

Additional observations from a re-analysis of the deposited data

How the results depend on the processing

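The values rest on 3 arrays per group, without detection calls for dim signals. Against the 80 members, the rule took 139 probe sets with an offset of 1 unit (all 80 among them), 41 with an offset of 30, 205 at a threshold of 0.6 and 42 at a threshold of 1, and from 151 to 204 when 1 number was left out. Quantile normalization gave 77 (65 shared with the 80) and median centring 68 (62 shared). The median member difference of 1.31 was 1.01 with an offset of 30 units, and stayed within the spread between pairs under the other alternatives. It was 1.19 among the samples labelled 5.10, which hold only replicate 1 of pad4, and 1.20 without both replicate 3 arrays. Since the same differences chose the members, this median was held up by the choice, and nothing is read from its stability. Of the members 14 shifted between numbers 3 and 1, against 8 with an offset of 30 and 0 at a threshold of 2.

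The whole-table limma fit called 5 probe sets. It called 0 with stage added, among samples labelled 5.10, with an offset of 1 unit, with no signal filter and with cross-hybridising probe sets removed, where the smallest adjusted p by limma lay between 0.060 and 0.27 and in that order 196, 351, 578, 1156 and 543 had an unadjusted p under 0.05. Quantile normalization gave 2 and median centring 1. Leaving out 1 array gave 0 to 9 calls, 9 without pad4 replicate 3, 1 without double mutant replicate 1 and 0 without any other single array, and leaving out both replicate 3 arrays gave 19. A replicate block, though the numbers are not taken as pairs, gave 81. Of the 24 list genes 4 were called, 0 in the alternatives without calls, 2 with quantile normalization, 1 with median centring, 6 with the replicate block, and 0 to 4 with arrays left out. The cause of these changes was not tested. The planned motif search was not run. Over the 30 genes named by the rule, 41 of 204 differences under other offsets, filters and normalizations moved by more than the spread between pairs. Their sign was all but fixed by how the genes were chosen.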

Other observations

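The 48 members with 1 gene are spread over the 5 nuclear chromosomes, with 15 on chromosome 1, 10 on chromosome 2, 11 on chromosome 3, 6 on chromosome 4 and 6 on chromosome 5. As shares these are 31.2%, 20.8%, 22.9%, 12.5% and 12.5%, beside 25.8%, 14.3%, 20.2%, 14.6% and 23.8% of all named probe sets kept. The order of protein-coding genes in the RefSeq table gave next neighbours for 47 of the 48, and 34 neighbouring probe sets were measured. None of the 34 is a member. Their mean log2 differences ran from -0.63 to 0.90 with a median of 0.11, and 21 of 34 were positive. The highest was AT1G01770, the neighbour of PLIM2b, whose smallest pair difference was 0.57.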
